A study of Mus musculus with 12 samples.

Results

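Fast excitatory transmission in the brain is carried by glutamate-gated cation channels of the AMPA and kainate families. An AMPA receptor is assembled from the subunits GluA1 to GluA4, encoded by Gria1 to Gria4, and the GluA2 subunit keeps the channel nearly impermeable to calcium once its RNA has been edited by an ADAR enzyme. A kainate receptor is assembled from GluK1 to GluK3 (Grik1, Grik2, Grik3), which can form channels on their own, together with the high-affinity subunits GluK4 and GluK5 (Grik4, Grik5), which cannot. Kainate receptors act at both sides of the synapse and are known for tuning transmitter release and network activity in the immature brain. In the AMPA subunits a pair of mutually exclusive exons, flip and flop, encodes part of the ligand-binding domain, and the subunits of both families differ further in the splicing of their C-terminal tails.

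The 9 genes were chosen by symbol, as the AMPA and kainate receptor subunits among the main probesets of the array. The table named 8 of them, with 182 probesets, of 17550 gene symbols and 221417 main probesets in all. The AMPA subunits had 93 probesets over 4 genes and the kainate subunits 89 over 4 genes. Grik3 was matched neither by symbol nor by synonym nor by accession and was not analysed here.

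The arrays carry total RNA of whole brains of newborn female mice, on a C57BL6/N background, on Affymetrix Mouse Exon 1.0 ST arrays. KIS is a protein kinase encoded by Uhmk1, and 6 KIS-ko brains (KIS -/-) were set against 6 wildtype brains (KIS +/+) from the same 6 litters, with 1 brain of each genotype per litter and no treatment. The knock-out was present in every cell and throughout development. A whole-brain homogenate averages all regions and cell types, so that fewer cells of a type and less RNA per cell cannot be told apart in any value below. Uhmk1, the targeted gene, had gene values of 10.89 to 11.07 in the wildtype and 8.62 to 8.98 in the KIS-ko, as the labels require (limma adjusted p = 2.91e-07). The median signal per array lay between 478 and 546, and it was lower in the KIS-ko array of the pair in 5 of 6 litters. All 8 neuronal marker genes were above the background of the intron controls.

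A probeset is a small group of probes within an exon or a part of it. Its signal is the linear intensity that the authors obtained with the PLIER algorithm. The gene value used below is the mean over the probesets of a gene of log2(signal + 16). Background was taken from 5222 intron control probesets, whose mean signals had a median of 114 and a 95th percentile of 713. Probes differ in their affinity, so signals of different probesets or genes give no order of transcript amounts. Differences between arrays of the same probeset or gene do not have this limit.

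The sequences upstream of 3 of the genes are shown because the results below contrast these genes. Gria2 and Grik2 differed most between the litters and Grik5 did not pass that test even before adjustment, a choice made after the values were seen. RefSeq promoter sequences of assembly GRCm38.p6 were found for 5 of the 8 genes, and the 250 bases before the annotated start are printed 5′ to 3′ on the strand of the gene, with each CG dinucleotide in capitals. These are chr3:80802836-80803085 for Gria2, chr10:49788755-49789004 for Grik2 and chr7:25072370-25072619 for Grik5, all on the minus strand.
Gria2: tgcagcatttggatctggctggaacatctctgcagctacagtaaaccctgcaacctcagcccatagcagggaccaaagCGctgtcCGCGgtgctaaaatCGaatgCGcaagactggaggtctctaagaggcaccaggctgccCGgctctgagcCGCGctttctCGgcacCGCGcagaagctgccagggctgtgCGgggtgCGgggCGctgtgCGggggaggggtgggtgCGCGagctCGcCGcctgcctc
Grik2: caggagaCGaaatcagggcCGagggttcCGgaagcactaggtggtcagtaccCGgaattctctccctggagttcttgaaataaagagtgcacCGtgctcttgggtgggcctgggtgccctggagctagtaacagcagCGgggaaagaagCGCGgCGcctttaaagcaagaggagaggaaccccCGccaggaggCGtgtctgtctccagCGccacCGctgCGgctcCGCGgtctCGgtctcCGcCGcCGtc
Grik5: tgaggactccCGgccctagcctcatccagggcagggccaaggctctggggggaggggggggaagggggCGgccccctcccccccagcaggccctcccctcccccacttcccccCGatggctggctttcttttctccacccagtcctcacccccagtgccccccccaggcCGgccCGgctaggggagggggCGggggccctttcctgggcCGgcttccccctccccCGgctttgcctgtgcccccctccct
The Gria2 and Grik2 windows held 19 and 20 CG dinucleotides, against a median of 6 over the 32851 promoters of the same length. The Grik5 window held 8, although 75.2% of its bases were G or C. The Gria4 and Grik4 windows, not printed, held 16 and 36. The letters GGGCGG on either strand, as in a GC box, occurred in the Grik4 and Grik5 windows and in 32.7% of all promoters. The letters TATAAA on either strand occurred in none of the 5 windows and in 12.4% of all promoters. Such matches describe the sequence only.

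Transcripts of all 8 subunits were detected in the newborn brain, in that the median probeset signal of each gene exceeded the 95th percentile of the intron controls. Of 182 probesets, 179 passed the filter on the relative standard deviation between arrays, and 153 of these, or 85.5%, had a mean signal above the intron limit, against 44.6% of the probesets of all genes. The share was 94.6% for the AMPA and 75.6% for the kainate subunits.

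Gria1 encodes a subunit with a long C-terminal tail that is phosphorylated during plasticity, and its 22 probesets, at chr11:56825556-57143722, had a median signal of 3533, with 20 of them above the intron limit. Gria2 (chr3:80492472-80606273) was the gene with all of its probesets, 25 of 25, above the limit, with a median of 4051 and a range from 2058 to 8166. Gria3, which is X-linked (chrX:38754707-39025625), had 20 of 21 probesets above it and a median of 2117, and Gria4 (chr9:4419287-4796042) had 23 of 25 and a median of 1729. Thus every AMPA gene was represented by at least 20 well detected probesets, and its dim probesets were few. Only 15 of the 21 Gria3 probesets are marked as matching a single place in the genome, whereas all 22 of Gria1 are.

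Among the kainate subunits, Grik2 (chr10:48820836-49503329), which encodes GluK2, had 21 of 23 filtered probesets above the intron limit and a median signal of 1973. Grik5 (chr7:25794924-25848075) had 16 of 20 and a median of 1841. Grik4 (chr9:42328543-42627008) had 17 of 23 and a median of 1082. Grik1 (chr16:87912709-88056406), which encodes GluK1, was the least covered by detected probesets, with 11 of 20 above the limit and a median of 738. The positions are those listed in the deposited table, whose build is not given in the sources used here.

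The dim probesets of Grik1 and Grik5 lay mostly towards the 3′ end. In Grik1, counted from the 5′ end, 1 of the first 10 probesets and 8 of the last 10 were at or below the intron limit, including all of the last 6. Its first probeset had a mean signal of 4839, and its lowest had 61.9. In Grik5 none of the first 10 and 4 of the last 10 were dim, and in Grik4 3 of the first 11 and 3 of the last 12. The 2 dim probesets of Gria1 were the last 2 of the gene. Gene values of Grik1 therefore averaged detected 5′ probesets with 3′ probesets at background level.

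**Figure D1:**
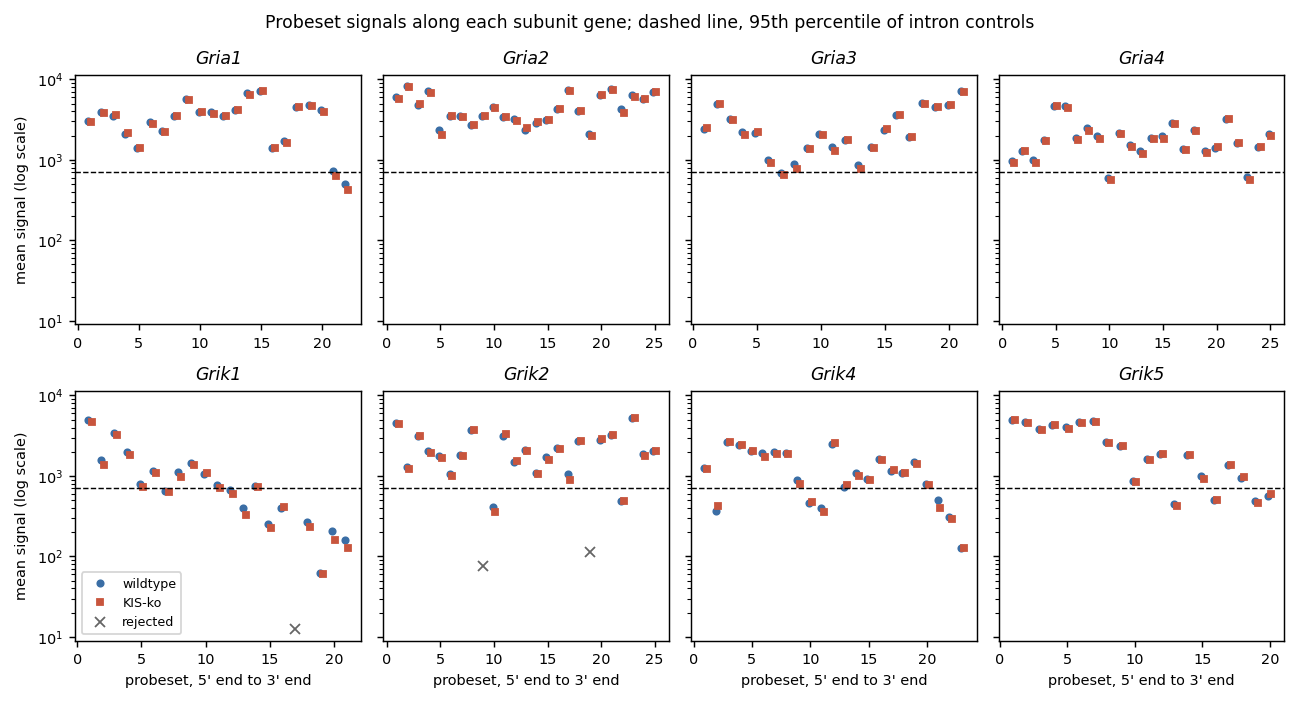
Mean signal (log scale) of each probeset over the 6 wildtype arrays (circles) and the 6 KIS-ko arrays (squares), numbered from the 5′ to the 3′ end of each gene. Crosses are the 3 probesets rejected for their spread, and the dashed line is the 95th percentile of the intron controls, 713. The genotypes lie close together at every probeset, and the last 6 probesets of Grik1 lie under the line.

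Whether the subunit transcripts changed in the KIS-ko was asked within litters, since each KIS-ko brain has a wildtype littermate. No subunit passed the test. In limma with the litter as a block, 0 of 8 subunits had an adjusted p under 0.05 and 0 of 8 had an unadjusted p under 0.05, where 1 of 17279 genes (0.00579%) passed the first limit, Uhmk1 itself, and 1065 (6.16%) the second. The adjusted p of the subunits lay between 0.685 for Grik1 and 0.846 for Grik5. The mean difference was below 0 for 8 of 8 subunits, but so it was for 12062 genes, or 69.8%, and the median difference of all genes was -0.04. After the arrays had been centred on their medians, 2 of the 8, Gria4 and Grik1, stayed below 0, with 37.7% of all genes, and after a second quantile normalization 7 of the 8 did, with 48.6%.

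Gria1 had gene values of 11.34, 11.54 and 11.59 (lowest, median and highest) in the wildtype and 11.31, 11.48 and 11.54 in the KIS-ko. The groups overlapped over nearly their whole range, yet the KIS-ko value was below that of the littermate in 6 of 6 litters, a pattern that 1.6% of all genes showed. The difference was -0.04 ± 0.05 (SE, n = 6 pairs; limma adjusted p = 0.736), and it was above 0, at 0.01, with centred arrays. In litters 1, 3 and 4 the difference was only -0.013, -0.004 and -0.002.

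Gria2 had gene values of 11.76, 12.11 and 12.23 in the wildtype and 11.63, 12.09 and 12.18 in the KIS-ko. The KIS-ko was lower in 3 of 6 litters, and the lowest value of either genotype came from litter 5. The difference was -0.03, with a 95% confidence interval from -0.15 to 0.08 (limma adjusted p = 0.812).

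For Gria3 the wildtype values were 10.92, 11.10 and 11.24 and the KIS-ko values 10.75, 11.11 and 11.13, with a difference of -0.05 (interval from -0.16 to 0.06). For Gria4 they were 10.54, 10.78 and 10.82 against 10.44, 10.71 and 10.82, with a difference of -0.06 (interval from -0.17 to 0.05). Each was lower in the KIS-ko in 4 of 6 litters, and the genotypes overlapped.

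Grik1 showed the largest difference of the 8. Its wildtype values were 9.17, 9.52 and 9.60 and its KIS-ko values 9.08, 9.30 and 9.56, and the KIS-ko was lower in 5 of 6 litters. The difference was -0.12 ± 0.06 (SE, n = 6 pairs), a fold of 0.919 with a 95% interval from 0.842 to 1.003, and limma gave an unadjusted p of 0.058 and an adjusted p of 0.685. The single litters ran from -0.35 in litter 6 to 0.02 in litter 3. The difference was below 0 in each of the alternatives run, from -0.15 to -0.07, and over them its adjusted p lay between 0.234 and 1.000 and its unadjusted p between 0.041 and 0.293. The unadjusted p was under 0.05 without litter 3, with a pseudocount of 64 and with probesets matching 1 place.

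Grik2 had wildtype values of 10.52, 10.93 and 11.06 and KIS-ko values of 10.51, 10.91 and 10.97, with a difference of -0.04 (interval from -0.16 to 0.08) and lower values in 5 of 6 litters. Grik4 had 9.85, 9.98 and 10.08 against 9.80, 9.92 and 9.99, with a difference of -0.05 (interval from -0.17 to 0.07). Grik5 had 10.72, 10.78 and 10.91 against 10.69, 10.77 and 10.86, with a difference of -0.03 (interval from -0.13 to 0.08). The exact two-sided sign-flip permutation test over the 6 litters gave unadjusted p from 0.1875 for Gria4 to 0.50 for Grik5 in these 3 and in Gria2 to Gria4. It gave 0.0625 for Grik1, and for Gria1 0.031, the smallest it can give, which only restates that 6 of 6 litters were lower. For the subunits other than Grik1 the intervals ran from a fold of 0.887 at the lowest to 1.059 at the highest, and with arrays centred on their medians they ran from 0.925 to 1.108.

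By the measure of the study, the mean ratio of KIS-ko over wildtype weighted over probesets by the inverse of its relative spread, the fold changes were 0.981 ± 0.034 for Gria1, 0.984 ± 0.061 for Gria2, 0.975 ± 0.046 for Gria3 and 0.964 ± 0.052 for Gria4 (SD, n = 6 pairs). They were 0.935 ± 0.083 for Grik1, 0.986 ± 0.063 for Grik2, 0.979 ± 0.058 for Grik4 and 0.981 ± 0.039 for Grik5. Each was within 1 SD of 1, where the SD is the spread over the 6 pairs and not the error of the mean. All 8 fold changes were below 1, as were 56.2% of all genes. With arrays centred on their medians 2 of the 8 were, and the share of all genes under that scaling is not given here.

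**Figure D2:**
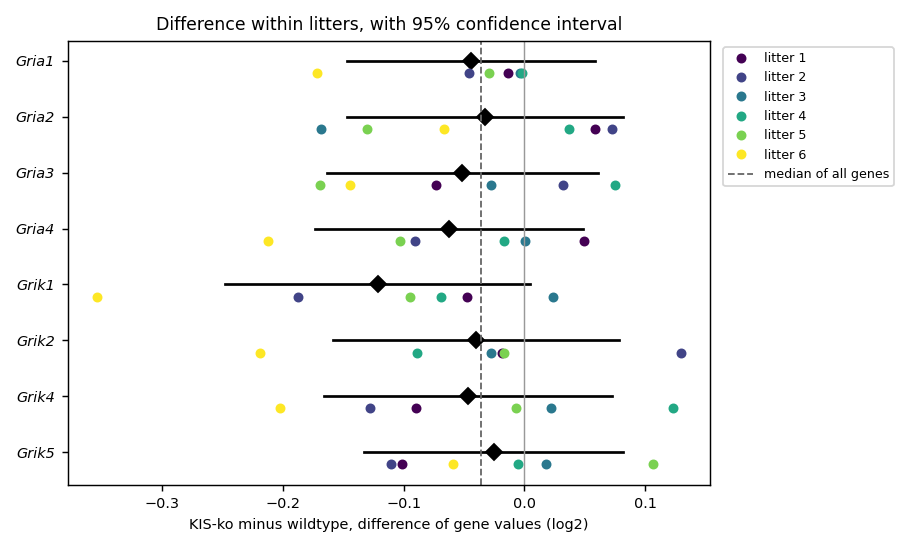
Difference of gene values, KIS-ko minus wildtype, for each subunit (diamond) with its 95% confidence interval (line) and the difference in each of the 6 litters (coloured points). The dashed line marks the median of all genes, -0.04. Each interval includes 0, and litter 6 (yellow) lies below 0 for all 8 subunits, furthest for Grik1 at -0.35.

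The differences were compared litter by litter. The KIS-ko brain of litter 6 was below its littermate for 8 of 8 subunits, from -0.35 for Grik1 to -0.06 for Grik5, where 70.4% of all genes were lower in that litter and the median of all genes was -0.11. In litter 4, in contrast, the median of all genes was 0.07 and 30.3% of them were lower, while 5 of the 8 subunits were. The median signal of the array was 546 in the wildtype and 485 in the KIS-ko of litter 6, and 502 and 538 in litter 4. Its part in the differences of the subunits was not tested. Without litter 6 the Grik1 difference was -0.07 and without litter 3 it was -0.15, with unadjusted p of 0.186 and 0.041 in limma. The smaller differences of the other subunits also moved by over 1.5 times with 1 litter left out, though none turned above 0. Nearest to 0 they were -0.02 for Gria1, -0.03 for Gria4, -0.004 for Grik2 and -0.02 for Grik4 without litter 6, -0.01 for Gria2 without litter 3, -0.03 for Gria3 without litter 5 and -0.008 for Grik5 without litter 2. Furthest from 0 they were -0.05 for Gria1 and Gria2, -0.08 for Gria3, Gria4 and Grik4, -0.07 for Grik2 and -0.05 for Grik5.

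Exon-level differences bear on alternative cassettes and ends, for which a splicing index was taken as the log2 signal of a probeset minus the mean of the other probesets of its gene. No probeset of the subunits passed. In limma, 0 of 179 probesets had an adjusted p under 0.05 for the signal itself and 8 an unadjusted one, or 4.47%, against 10 (0.00487%) and 13621 (6.63%) of 205469 probesets of all genes. Of the 179, 140 were lower in the KIS-ko, or 78.2%, against 66.2% of all, and with centred arrays 76 were, or 42.5%, against 43.4%. For the splicing index, 0 of 179 passed and 4 had an unadjusted p under 0.05, or 2.23%, against 2 (0.000985%) and 12364 (6.09%) of 202944. The Simes test of diffSplice called 0 of the 8 genes, with unadjusted p under 0.05 for Gria2 and Grik4 (0.046 each), and 290 of 15572 genes.

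Grik4 held both the lowest and the highest index difference of all subunits. At its probeset 21 of 23 from the 5′ end (chr9:42332593-42332667) the signals were 420, 498 and 588 in the wildtype and 344, 408 and 455 in the KIS-ko. The KIS-ko was lower in 6 of 6 litters, and the index ran from -1.19 to -0.88 in the wildtype and from -1.47 to -1.16 in the KIS-ko, so that the groups met only at their edges. The index difference was -0.27, with a 95% interval from -0.41 to -0.14 and a limma adjusted p of 0.657. At probeset 2, near the 5′ end, the index was higher in the KIS-ko by 0.26. Both probesets lay under the intron limit of 713, with mean signals of 451 and 394.

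In the other genes the largest index differences were smaller. They were -0.18 at probeset 21 of 22 in Gria1, -0.21 at probeset 5 of 25 in Gria2, -0.17 at probeset 8 of 21 in Gria3 and 0.11 at probeset 20 of 25 in Gria4. In the kainate family they were -0.19 at probeset 13 of 21 in Grik1, -0.19 at probeset 17 of 25 in Grik2 and 0.13 at probeset 20 of 20 in Grik5. Their limma adjusted p lay between 0.809 and 0.857. Apart from the Gria1 probeset, which was lower in 6 of 6 litters and whose unadjusted p was 0.032, none of these had an unadjusted p under 0.05. The probesets of Gria1, Grik1 and Grik5 lay under the intron limit, with mean signals of 683, 365 and 582.

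**Figure D3:**
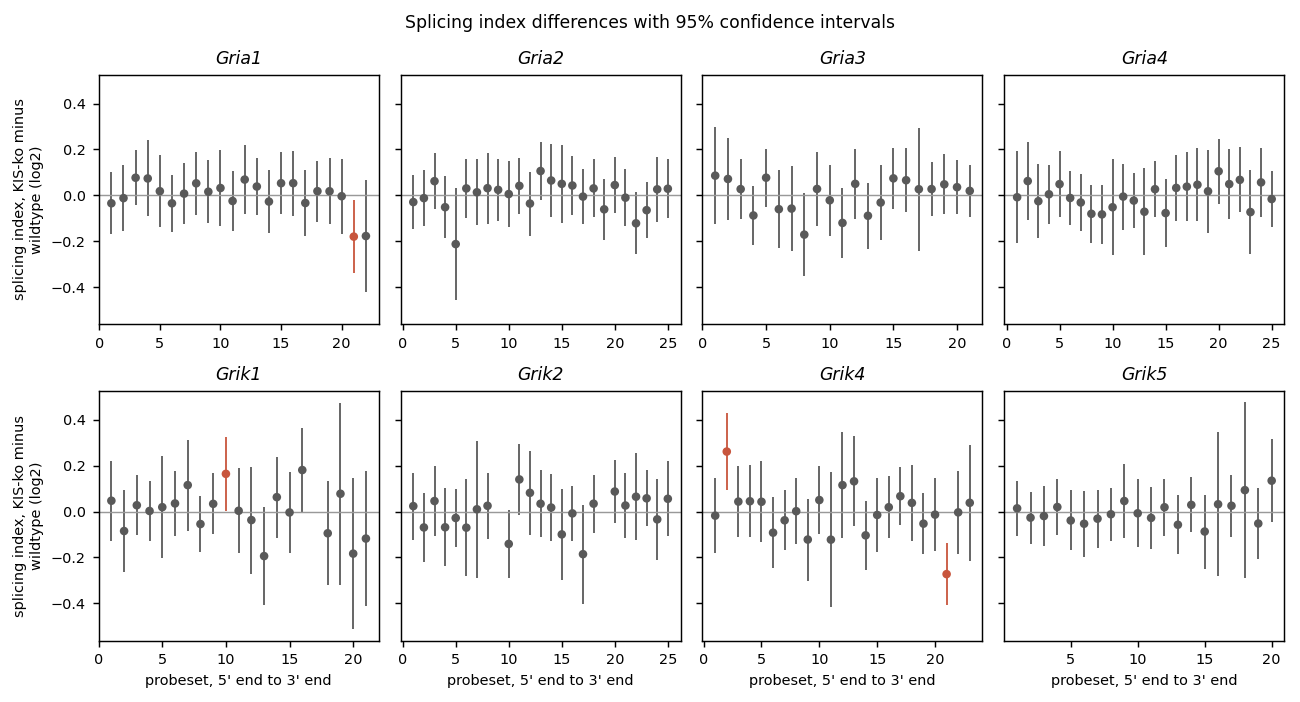
Splicing index difference (log2, KIS-ko minus wildtype) of each probeset with its 95% confidence interval, numbered from the 5′ to the 3′ end. The 4 probesets with an unadjusted p under 0.05 are red, 1 in Gria1, 1 in Grik1 and 2 in Grik4. None passed the adjusted threshold, and the intervals are wider where the signal is dim, as at the 3′ end of Grik1.

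The table assigns each probeset to a transcript, and those assigned to a transcript other than the most frequent one of their gene are the nearest it comes to a label of alternative exons. It does not say which probesets lie in the flip or flop exons. In Gria1 the single such probeset, the 13th of 22 at chr11:57123290-57123320, had a mean signal of 4134, well above background, and an index difference of 0.04. In Gria2, 4 probesets between the 11th and the 15th, from another cDNA, had signals from 2387 to 3428, and the last 7, from a second RefSeq transcript, had 2058 to 7479. The sequences that these probesets of Gria1 and Gria2 match were thus detected in the newborn brain of both genotypes.

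In the kainate subunits such probesets were dim. The 2 Grik2 probesets from a transcript of their own, the 9th and 10th of 25, had signals of 76.9 and 381, and the probeset of the second RefSeq transcript, the 22nd at chr10:48824836-48824869, had 490. Of these the first was also rejected for its spread. The 3 last probesets of Grik1, from a separate cDNA, had 61.9 to 183. All lay under the intron limit, so that no level can be given beyond the background. The index differences of all these probesets in the 4 genes lay between -0.18 and 0.11, with a lowest unadjusted p of 0.059.

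The 6 litters were compared in the same way, with littermates as the replicates of a litter. An F test over the litters in limma, with the genotype in the model, gave an adjusted p under 0.05 for 0 of 8 subunits and 0 of 17279 genes (0.0%), and an unadjusted p under 0.05 for 5 of 8 subunits, against 1955 genes or 11.3%. With arrays centred on their medians it was 3 of 8 against 14.4% of all genes, with Gria3 and Gria4 no longer among them. With the median over probesets in place of the mean it was also 3 of 8, against 1736 genes. In limma the unadjusted p was 0.0028 for Gria2 and 0.0039 for Grik2 (adjusted p = 0.196 and 0.224). It was 0.015 for Grik1, 0.027 for Gria3 and 0.035 for Gria4 in limma (adjusted p = 0.307, 0.372 and 0.395). Gria1, Grik5 and Grik4 did not reach the unadjusted limit, with an adjusted p from 0.622 to 0.948 in limma. With a variance trend and robust moderation, Gria2 (adjusted p = 0.025) and Grik2 (adjusted p = 0.047) passed, with 168 genes in all.

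The lowest values came from litter 5. For Gria2 the 2 arrays of litter 5 gave 11.76 (wildtype) and 11.63 (KIS-ko), and the 10 others 12.03 to 12.23. For Grik2 they gave 10.52 and 10.51, and the others 10.79 to 11.06. For these genes neither littermate overlapped with any other brain.

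The same order held for Gria1 (11.34 and 11.31, others from 11.42), Gria3 (10.92 and 10.75, others from 11.03), Gria4 (10.54 and 10.44, others from 10.61) and Grik1 (9.17 and 9.08, others from 9.24). In Grik4 the litter 5 arrays gave 9.90 and 9.90, inside the range of the others from 9.80 to 10.08, and in Grik5 10.72 and 10.82, inside 10.69 to 10.91. Both arrays of litter 5 were the lowest of their genotype for 6 of 8 subunits and for 17.2% of all genes, or for 5 of 8 and 9.12% with each array centred on its median. Without litter 5 the litter test gave 0 of 8 subunits an unadjusted p under 0.05, and 3.83% of all genes.

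Relative to the mean of the other 5 litters, litter 5 was lower by 0.43 for Gria2, by 0.41 for Grik2, by 0.32 for Grik1, by 0.28 for Gria3, by 0.27 for Gria4 and by 0.19 for Gria1 on the log2 scale. It was lower by 0.05 for Grik4 and by 0.01 for Grik5. The median of all genes was -0.03. Centring the arrays raised each of these values by 0.10, which left Grik4 and Grik5 above 0 and the others below it. Of all genes, 1.63% lay below Gria2 and 1.94% below Grik2 in this order, while 55.3% lay below Grik5.

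**Figure D4:**
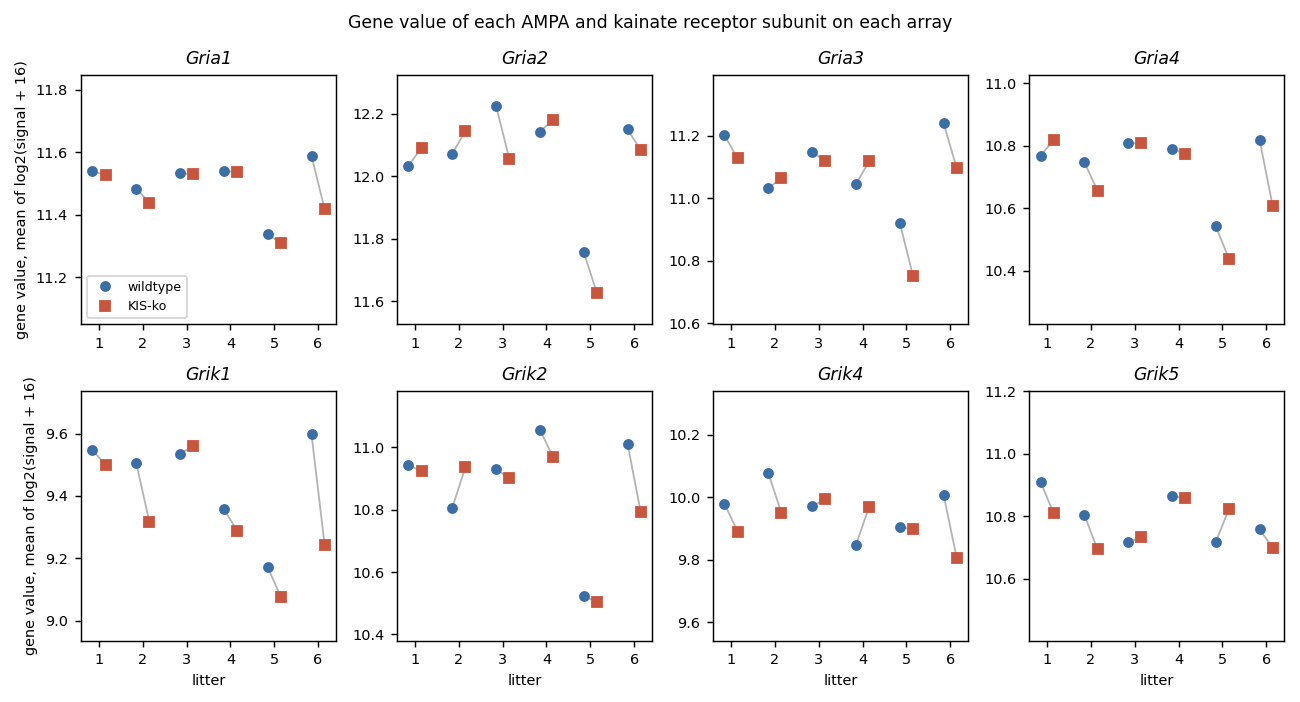
Gene value, the mean over probesets of log2(signal + 16), of each subunit on each of the 12 arrays, by litter, with littermates joined (circles wildtype, squares KIS-ko). Each panel spans 0.8 on its vertical axis. The 2 arrays of litter 5 are the lowest of all for Gria1 to Gria4, Grik1 and Grik2, and not for Grik4 and Grik5.

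Other measures also moved with litter 5. The median signals of its arrays were 491 (wildtype) and 478 (KIS-ko), the latter the lowest of all 12. Markers of whole regions and cell types were set beside it. Their counts and medians are given with arrays centred and their summed levels without centring. The median of all genes in litter 5 was 0.07 with arrays centred. Of the 6 forebrain markers measured, 2 were lower in litter 5 than in the others, with a median of 0.02 (without centring 5 of 6, with a median of -0.08), and their summed level was 13.77 and 13.74 in litter 5 against 13.77 to 14.03. Of the 8 neuronal markers 2 were lower (5 without centring), with a median of 0.10 and a summed level of 15.65 and 15.58 against 15.59 to 15.70. None of the 5 hindbrain markers was lower (2 without centring), with a median of 0.13 and sums of 11.60 and 11.81 against 11.34 to 11.83, and none of the 4 muscle markers was, with a median of 0.27 and sums of 11.84 and 11.72 against 11.52 to 11.84. Their part in the litter 5 values of the subunits was not tested.

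The remaining marker lists showed medians in litter 5 of -0.02 for astrocytes and radial glia, 0.04 for the oligodendrocyte lineage, 0.03 for microglia, 0.00 for endothelium, 0.13 for choroid plexus, 0.08 for meninges, 0.12 for erythroid cells, 0.21 for pituitary, 0.11 for cerebellum and 0.16 for interneurons. Single markers within the lists had an unadjusted p under 0.05 in the litter test of limma, and none an adjusted one. With centred arrays, Olig2 and Sox10, transcription factors of the oligodendrocyte lineage, were higher in litter 5 by 0.39 and 0.41, Hoxa5 of the hindbrain list by 0.46 and Pomc of the pituitary list by 0.28. The median signals of Sox10 and Pomc, 608 and 433, were under the intron limit. Syt1, a synaptic vesicle protein of the neuronal list, was lower by 0.16. All 6 microglial markers and 4 of the 5 hindbrain markers had median signals at or below the intron limit. So did the 2 pituitary markers measured, of 4 named, and 3 of 5 each for endothelium, choroid plexus, erythroid cells and cerebellum. The count was 3 of 7 for the oligodendrocyte lineage, 2 of 6 for astrocytes and radial glia, 2 of 5 for meninges and 2 of 4 for muscle. Between the genotypes 0 genes of any marker list passed the adjusted threshold. Their median differences, KIS-ko minus wildtype, ran from -0.10 (astrocytes and radial glia) to 0.02 (erythroid cells), and with centred arrays the medians of the lists ran from -0.04 to 0.07. Of the 5 hindbrain markers, 3 were lower, with a median of -0.04 and a range from -0.21 for Hoxb2 to 0.22 for Hoxa5. Hoxa5, with a median signal of 1131, had an unadjusted p under 0.05 in limma. Gfap and Hoxc4 also had an unadjusted p under 0.05, but their median signals of 450 and 122.8 were under the intron limit.

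Genes that act with the subunits were taken from lists of their partners, and their counts of lower genes stand beside 69.8% of all genes that were lower in the KIS-ko. Of 26 AMPA receptor auxiliary proteins, which set the trafficking and gating of the channel, 17 were measured, and 12 were lower and 5 higher in the KIS-ko, with a median of -0.02 and none past either threshold. They ran from -0.12 ± 0.07 (SE) for Abhd6, a serine hydrolase bound to AMPA receptors, to 0.04 ± 0.06 for Cacng2, which encodes stargazin. Of the 8 genes listed as kainate receptor auxiliary proteins and ligands, 7 were measured and 5 were lower, from -0.07 for Neto2, a transmembrane auxiliary subunit, to 0.04 for Kctd12, which is best known as an auxiliary subunit of GABA-B receptors.

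Of 22 names of genes of subunit trafficking and anchoring, which hold Epb4.1l1 also as Epb4.1n, 18 were measured and 15 were lower, with a median of -0.05. Myo6, which encodes a motor that carries AMPA receptors into the cell, had the lowest difference, -0.17 ± 0.07 (unadjusted p = 0.028 in limma, adjusted p = 0.685), with a median signal of 686 under the intron limit, and Nsg2 the highest, 0.03. Of 12 genes of subunit phosphorylation, 11 were measured and all 11 were below 0, with a median of -0.06, from -0.12 ± 0.06 for Camk2d to -0.01 for Ppp1r9b. Of 17 names of RNA editing and splicing factors, which hold Celf4 also under its older name Brunol4, 14 were measured and 12 were lower, from -0.08 for Tardbp, whose median signal of 685 was under the intron limit, to 0.02 for Khdrbs2, an RNA-binding splicing factor. None of these passed the adjusted threshold, and the medians lay near that of all genes, -0.04. The directions depended on the scaling. With centred arrays 2 of the 17 auxiliary proteins, 1 of the 7 kainate partners, 5 of the 18 trafficking genes, 5 of the 11 phosphorylation genes and 5 of the 14 editing and splicing factors were lower, beside 37.7% of all genes. After a second quantile normalization these counts were 6, 4, 10, 9 and 6, beside 48.6% of all genes.

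Among the related receptors, 6 of 7 NMDA receptor subunits were measured, from -0.11 for Grin2a to 0.03 for Grin3b, and 3 of the 6, Grin2a and Grin3b among them, had median signals under the intron limit. The litter test had an unadjusted p under 0.05 for 1 NMDA subunit, Grin2b, which was named after its value was seen and was lower in litter 5 by 0.44. In the partner lists this held for Cpt1c among the auxiliary proteins and for Adarb2 and Tardbp among the editing and splicing factors, lower in litter 5 by 0.33, 0.36 and 0.30. None of the trafficking, phosphorylation and kainate auxiliary genes reached this limit, which 11.3% of all genes did.

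The genes with the profile most like that of the subunits over the 12 arrays were found by Pearson's r of gene values, after each array had been centred on its median. For the mean of the 4 AMPA subunits these were Herc2 (r = 0.971), Kcnmb2 (r = 0.967) and Adam12 (r = 0.966). For the mean of the 4 kainate subunits measured they were Tln2 (r = 0.949), Ppp1r9a (r = 0.938) and Lrp1b (r = 0.920). The arrays are pairs of littermates, the 2 arrays of litter 5 weigh heavily in each r, and they were picked as the highest over all genes, so the values are descriptions. The median signals of Kcnmb2, Adam12, Tln2 and Lrp1b, from 294 to 693, were under the intron limit.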

How the data were processed

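Total RNA of 12 newborn female brains, 6 wildtype and 6 KIS-ko, was measured on 1 exon array each. The intensity of each probeset was deposited by the authors as PLIER signal from the Affymetrix Expression Console after quantile normalization at the exon level. Of the main probesets with a symbol, the limit of the study on the relative standard deviation, 0.4 within each genotype, left 205469 probesets of 17279 genes. Values were tested as log2(signal + 16) with limma 3.58.1 in R 4.3.3, two-sided, blocked by litter. Benjamini-Hochberg adjustment covered every gene or probeset of the table at 0.05. The splicing index needed at least 3 probesets in a gene. The F test over litters had the genotype in the model. Python 3.11.15 with pandas 2.3.3 and numpy 2.4.6 served for the rest, and the scripts were tested on simulated data. Precision is limited by the number of arrays.

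The genes named in the text are the subunits, the highest and the lowest difference of each partner list and any gene past the adjusted threshold, the probesets of highest and lowest signal and of the largest index difference of each subunit, and the 3 genes most like each family. Genes named outside this rule were chosen after their values were seen, and a few genes of the lists are not reported here. The members and lists were chosen with earlier results of these data known. Of the lists, Rbfox1, Rbfox2, Srsf1, Rbfox3 and Map2 were matched through older names.

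Samples were paired by litter number, which equals the replicate number of each sample. The study describes 6 pairs of littermates but does not say which samples form each pair. All values by litter therefore rest on this numbering. The correlation of littermates' deviations from their genotype means ran from -0.114 to 0.473 and was below 0 in 3 of 6 litters, and between litters ran from -0.425 to 0.282 with a mean of -0.019.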

Additional observations from a re-analysis of the deposited data

Results flagged for a closer look

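In a search of 24 groups of 6 values (the wildtype values, the KIS-ko values and the litter differences of each of the 8 subunits), 4 had a value whose gap to its neighbour was more than 0.625 of the range of the group, which chance gives in about 1 group of 20. In litter 5 this was so for single genotypes of Gria2, Gria3 and Gria4. The KIS-ko value of litter 5 was 11.63 for Gria2, with the next at 12.06 and the highest at 12.18, and 10.75 for Gria3, with the next at 11.06. The wildtype value of litter 5 was 10.54 for Gria4, with the next at 10.75. The remaining one was the difference of Gria1 in litter 6, -0.17, where the other litters lay between -0.05 and 0.00. The 24 groups are not independent, since the litter differences are computed from the genotype values and the genes share the same arrays. The rate of 1 in 20 therefore gives no expected number of flags for the set.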

How the results depend on the processing

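Of the alternatives run (pseudocounts of 1 and 64, no filter on the relative standard deviation or a limit of 0.2, dim probesets left out, arrays centred or quantile-normalized again, probesets matching 1 place, the median over probesets, trend and robust moderation, diffSplice, and each litter left out), none gave a subunit past the adjusted threshold for the genotype, in genes, probesets or splicing indexes. The fit with no replicate block, which ignores the litter pairs, also gave 0 genes, 0 probesets and 0 indexes of the subunits.

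Array scaling changed the direction. With arrays centred on their medians 2 of 8 subunits were lower in the KIS-ko by gene value and 2 by the fold change of the study, and with arrays quantile-normalized again 5 by the fold change. For these counts by fold change the shares of all genes are not given here. Centred, the differences turned to 0.0114 for Gria1, 0.0229 for Gria2, 0.00443 for Gria3, 0.0156 for Grik2, 0.00883 for Grik4 and 0.0304 for Grik5, and Grik5 turned to 0.00968 with quantile normalization. Centring moved the median of all genes from -0.04 to 0.02, and the second quantile normalization moved it to 0.002. The largest splicing index difference of each subunit kept its direction in each of the 122 alternative fits run over the 8 genes. These probesets were picked as the largest in the same data. Centring, trend and robust moderation or a fit without the litter block cannot change the estimate. The kept direction is therefore no independent support. The size moved, from -0.21 to -0.33 for Gria2 without litter 4 and from 0.11 to 0.06 for Gria4 without litter 2.

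For the litters, trend and robust moderation put 2 subunits past the adjusted threshold, and centred arrays or the median over probesets left 3 with an unadjusted p under 0.05, beside 2495 and 1736 of 17279 genes. Leaving out each litter in turn gave 0 to 5, the 0 without litter 5, beside 3.83% to 15.8% of all genes. It also gave 7 to 8 subunits with a fold change below 1, for which the share of all genes is not given here. Causes were not tested. Signal over background limits Grik1 most, where 9 of 20 probesets were dim.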
